A study of Homo sapiens with 18 samples.

Results

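The data described here are 6 of the 18 one-colour Agilent arrays of a study on Ludox silica nanoparticles (NPs), namely the untreated controls at 3 h of recovery. A549 is an established human lung adenocarcinoma line with features of alveolar type 2 cells. The arrays were chosen by their labels: 3 are controls made for the SM30 cultures and 3 are controls made for the AS30 cultures at the short recovery time, and each group holds the biological replicates A, B and C. Both groups were A549 cells grown in F12-K medium with foetal calf serum, left to attach for 24 h, kept for 2 h in serum-free medium without NPs and returned to complete medium for 3 h. No agent, dose or time separates the groups, and the labels that name SM30 or AS30 on these arrays refer to the set, not to a treatment. The question was which genes differ between untreated cultures of the 2 sets.

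An untreated culture set records the state in which cells were harvested. In A549 cells that state includes the serum response (immediate-early transcription factors such as EGR1), the supply of oxygen and nutrients (hypoxia, glycolysis and amino acid response genes), the programmes of growth (ribosomes, mitochondria, splicing) and the lysosomal and stress programmes. On a one-colour array every sample is labelled and hybridised alone, so a difference between groups of arrays also holds whatever differed between their slides.

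The design does not separate slide from set. The 3 SM30-set controls lay on 1 slide and the 3 AS30-set controls on another, and neither slide held arrays of the other set. The set and the slide therefore cannot be told apart in any value below. Measures of the arrays themselves also differed. Of the non-control spots, 65.5% to 69.9% were well above background on the SM30-set arrays and 52.4% to 61.9% on the AS30-set arrays. The median local background was 50.5 to 56 against 42 to 43 intensity units. The 7 brightest spike-in probes, which detect the control RNA that the labelling kit adds, lay 0.47 to 0.89 log2 units higher in the SM30 set after normalization. The part of these measures in the results was not tested. In 2 other groups of the series the arrays spanned slides. The 22 h control that lay on the slide of the AS30-set controls, minus the 22 h controls on other slides, was above 0 for 56.2% of the probes called higher in the SM30 set and 29.4% of those called lower, beside 47.0% of all probes. The SM30-treated array on the slide of the SM30-set controls, minus those on another slide, was above 0 for 40.3% and 40.5%, beside 37.9%.

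2 arrays stood apart from the others of their set. On the first principal component of the 18 arrays, which held 41.3% of the variance, the SM30-set controls scored 55.3, 54.8 and 60.04 (A, B and C) and the AS30-set controls 0.95, 6.80 and -59.5. Array C of the AS30 set thus lay farther from A and B of its own set than those lay from the SM30 set. Array C of the SM30 set was set apart by its spots: probes printed at least 5 times on the array had a spot-to-spot SD of 0.24 log2 units there, against 0.10 to 0.15 on the other 5 arrays. The root mean square difference between A and B was 0.25 log2 units in the SM30 set and 0.36 in the AS30 set. It was 0.54 to 0.72 between C and either of them, and 0.52 to 0.99 between arrays of different sets.

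**Figure D1:**
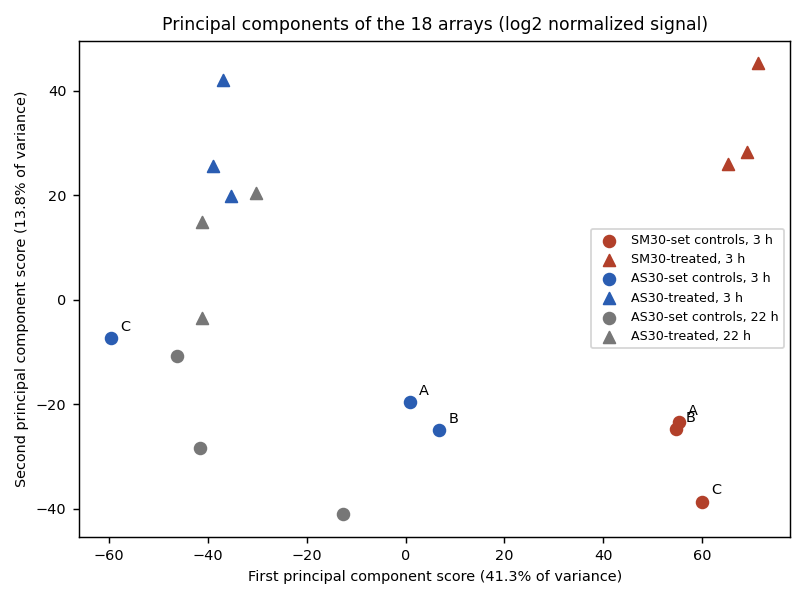
Scores of the 18 arrays on the first and second principal components of log2 normalized signal (axes without units, share of variance given), with the replicate letters of the 6 controls at 3 h. The SM30-set controls lie between 54.8 and 60.04 on the first component and the AS30-set controls between -59.5 and 6.80, with array C lowest.

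Of 41000 probes, 28665 were kept after the filter on missing spots and 28620 could be tested. A probe is termed called where its adjusted p in limma was under 0.05, and differences are SM30-set controls minus AS30-set controls in log2 units. Of the probes tested, 7668 were called (26.8%), 4479 of them higher in the SM30 set (15.6%) and 3189 lower (11.1%). Most differences were small: 1962 called probes reached 2-fold, and 373 reached 4-fold, of which 330 were lower in the SM30 set and 43 higher. On 24797 probes measured on all 6 arrays, the sets did not overlap for 11173 (45.1%). Without the C array of either set, 3989 probes were called, 3627 of them among the 7668. With only the 6 arrays in the fit the count was 3197, and 2933 of these were among the 7668.

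The NP-treated arrays at 3 h share no array with this comparison, but come from the same sets. There SM30-treated minus AS30-treated cells had the same sign for 7368 of 7666 called probes (96.1%), against 76.4% of all probes. Of the called probes, 5292 were also called in that direction among treated arrays and 22 in the other. Particle, slide and set cannot be told apart there. The controls of the AS30 set at 22 h lay nearer to the AS30-set side at 3 h for 6743 of 7607 called probes (88.6%). These probes were selected on the difference that defines the sides, and the share over all probes was not computed. The 22 h control of replicate A lay on the slide of the AS30-set controls at 3 h.

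EGR1, an immediate-early transcription factor induced by serum and growth factors, had the largest difference upwards among named genes that were well above background on all 6 arrays. Its log2 signal was 12.51, 12.49 and 12.73 on the SM30-set arrays A, B and C and 10.61, 10.21 and 10.45 on the AS30-set arrays. The sets did not overlap, which the rule for naming the largest differences required. The difference was 2.15 (standard error 0.40, adjusted p = 0.0023 in limma), or 4.45-fold. It was 2.09 without both C arrays, and among NP-treated arrays it was 1.45 (adjusted p = 0.022). The EGR1 probe lies at 137832790 to 137832849 of chromosome 5 (hg18, plus strand). The EGR1 promoter is shown because EGR1 is the member of the serum response with the largest difference. It is given as the stretch around the start of the gene (RefSeq, GRCh38.p14, chr5:138465229-138465528, plus strand), with the CArG boxes, the motif of the serum response factor, in capitals.

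EGR1: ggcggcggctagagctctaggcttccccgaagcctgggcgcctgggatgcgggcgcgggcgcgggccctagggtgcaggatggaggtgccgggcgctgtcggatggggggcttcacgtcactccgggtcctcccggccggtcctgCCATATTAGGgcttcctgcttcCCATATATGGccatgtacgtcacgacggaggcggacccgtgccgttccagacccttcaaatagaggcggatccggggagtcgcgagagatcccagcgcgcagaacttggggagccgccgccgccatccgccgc

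A search of both strands for the CArG box, which reads the same on either strand, found 2 in this window, and 351 of 27305 promoters of the table hold at least 1 (1.29%). The other immediate-early genes did not follow as a group. Of 38 tested, 3 were called higher and 1 lower (7.89% and 2.63%), beside 15.1% and 11.2% of all genes with 1 probe each, and the list had a median difference of 0.097. Besides EGR1, IER2 was higher by 0.71 (adjusted p = 0.022) and JUNB, a subunit of the AP-1 factor, by 0.69 (0.016). The call of IER2 was lost with 75th percentile scaling (0.29, adjusted p = 0.42) and cyclic loess (0.32, 0.32), and a dimmer probe of JUNB gave -0.29 (0.33). FOSL1, another AP-1 subunit, was lower at 9.15, 9.11 and 9.13 against 9.71, 9.44 and 9.84 (difference -0.53, adjusted p = 0.020). Without array C of the SM30 set the calls of IER2 (0.61, adjusted p = 0.080) and JUNB (0.60, 0.063) were lost, and the call of FOSL1 was lost without array B of the SM30 set, A of the AS30 set or C of the AS30 set, the last at -0.45 (0.072). FOS and MYC, which lie outside the naming rule, differed by 0.51 (adjusted p = 0.60) and 0.25 (0.36). Of the 28 tested members with a promoter in the table, 2 hold a CArG box.

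The other named genes with the largest differences upwards lay between 1.28 and 1.55 log2 units and come from unrelated functions. ARRDC3, an arrestin-domain protein of receptor trafficking, had 8.91, 9.17 and 8.87 in the SM30 set against 7.98, 7.49 and 7.61 in the AS30 set (difference 1.29, standard error 0.16, adjusted p = 0.00018). PPIH, a cyclophilin of the spliceosome, had 9.82, 9.93 and 10.01 against 8.49, 8.62 and 8.56. The sets overlapped in neither gene, which the rule for naming the largest differences required. SFRP4, a secreted inhibitor of WNT signalling, was higher by 1.46, with AS30-set arrays at 7.42, 7.53 and 6.86, and its call was lost without both C arrays (1.18, adjusted p = 0.059). DHRS2, a mitochondrial reductase, was higher by 1.42, and a further probe of the gene by 1.12. ESAM, an endothelial adhesion molecule, was higher by 1.46 with the brighter probe, but a further probe gave -0.45. HNRNPA1P27 and SAR1AP3 were also among these genes, the former without a call when both C arrays were left out (1.09, adjusted p = 0.069). They are processed pseudogenes, and on such a probe the parent transcript cannot be told apart. Few of the strongest probes upwards belong to known genes: 8 of the 43 called higher by 4-fold or more were matched to a RefSeq gene (18.6%), against 74.3% of all probes tested.

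**Figure D2:**
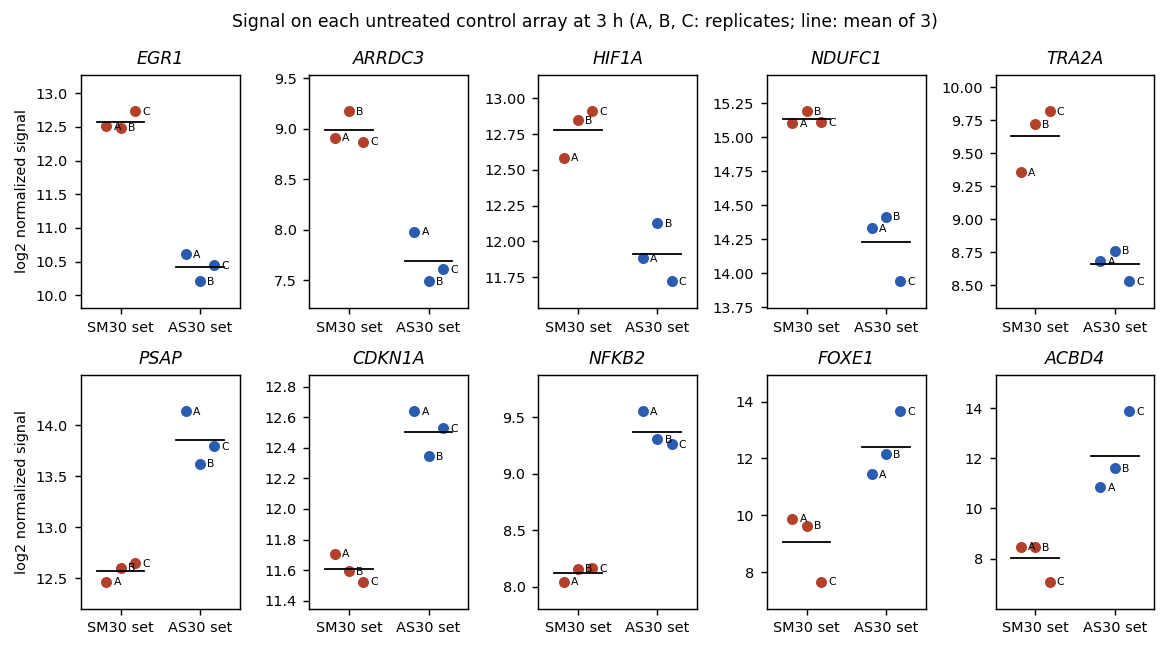
Log2 normalized signal of 10 genes on each untreated control array at 3 h, with letters for replicates and a line for the mean of 3. Each panel has its own scale, which does not start at 0. No gene shown has overlapping sets, and in FOXE1 and ACBD4 array C is the lowest of the SM30 set and the highest of the AS30 set.

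The named genes with the largest differences downwards had values of another kind. All 15 lay between -2.87 and -4.41 log2 units, and several encode factors and channels of other tissues. FOXE1, a thyroid transcription factor, had 9.88, 9.64 and 7.67 in the SM30 set and 11.45, 12.14 and 13.65 in the AS30 set (difference -3.35, adjusted p = 0.0018). IRX4, a factor of heart ventricle, had 7.97, 8.04 and 7.57 against 10.01, 10.36 and 12.53. CACNA1E, a neuronal calcium channel subunit, had 10.43, 10.28 and 6.11 against 12.52, 12.62 and 14.92. For these genes array C of the SM30 set was the lowest of the 6 arrays and array C of the AS30 set the highest. ACBD4, SOX8, NKD2, NRN1 and LRP3 showed the same order of the C arrays. Leaving out both C arrays, FOXE1 differed by -2.04, IRX4 by -2.18 and CACNA1E by -2.22. Among NP-treated arrays the differences were -4.76, -4.77 and -5.54.

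Other probes of several of these genes differed little. The brighter probe of ACBD4 differed by -4.10, and its other probe was also called lower, by 0.70 (adjusted p = 0.040). The brighter probe of FOXE1 differed by -3.35 and its other probes by -0.17 and -0.11, and the files give the brighter one no position in the genome. IRX4 had -3.11 with the brighter probe and -0.12 with the other, and NKD2, an inhibitor of WNT signalling, -2.97 and 0.16. SOX8 gave -2.92 and 0.41, and KCNH2, a cardiac potassium channel, -3.06 and 0.33. The pairs of FOXE1, IRX4, NKD2, SOX8 and KCNH2 disagree by more than 2 log2 units within a gene. However, the other probes of IRX4 (5.57 in the SM30 set, 5.70 in the AS30 set) and KCNH2 (5.10 and 4.77) were dim in both sets. Such probes could hardly show a drop. The brighter probe of KCNH2 was itself dim in the SM30 set (4.99), and with normexp it differed by -0.88. Over all genes with more than 1 tested probe, 118 probes were called lower by 4-fold or more with a median of -2.47. Paired with the other probes of their genes (167 pairings), they stood beside a median of -0.17, and 32 of those probes were also called lower (19.2%), beside 10.4% over all pairings. The 384 probes called higher by 2-fold or more had a median of 1.16 and stood beside 0.36 in 640 pairings, of which 226 were also called higher (35.3%), beside 17.9% over all pairings. Downwards at 2-fold or more, the other probes had a median of -0.22 in 523 pairings, and 22.9% were also called lower. Upwards at 4-fold or more, the median was 0.50 in 19 pairings, and 31.6% were also called higher. Among all called probes, 37.8% of pairings kept the call upwards and 28.6% downwards. The sequences of the probes were not used here, and no feature of them was tested.

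**Figure D3:**
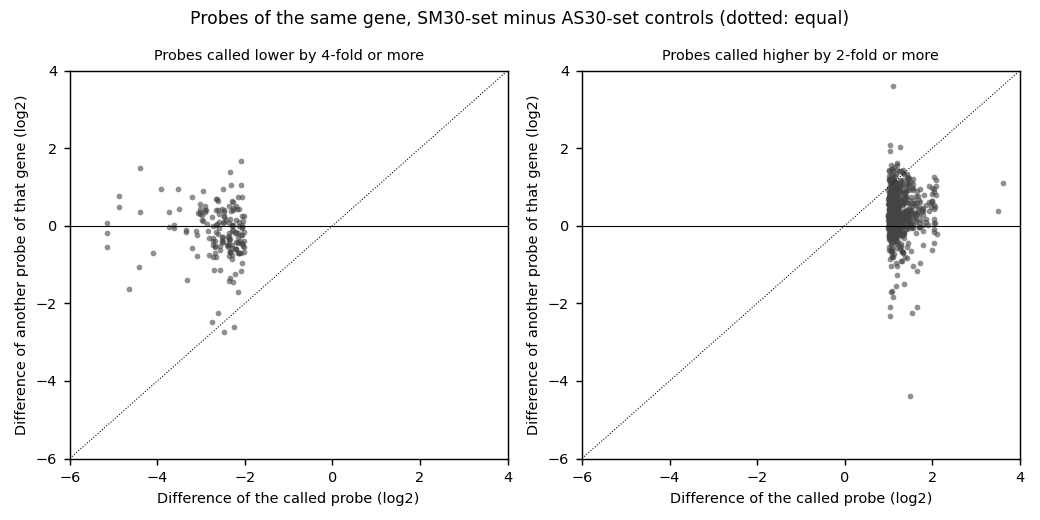
Difference in log2 units (SM30-set minus AS30-set controls) of called probes on the horizontal axis and of another probe of the same gene on the vertical axis, 1 point per pairing, with equality dotted. The probes called lower by 4-fold or more (167 pairings) stand beside probes with a median of -0.17, and those called higher by 2-fold or more (640 pairings) beside a median of 0.36.

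A few genes were not well above background on any array of 1 set, and for these a value termed a bound was taken. It is the mean of the bright set against a floor on each array of the dim set. That floor is the higher of the lowest signal well above background and the probe's own signal, with dropped spots included. For ADPRH and BST2 the bound equals the fitted difference, so it is an estimate and not a minimum. These bounds hold for the main background correction: with normexp and an offset of 50, which draws dim signals together, ADPRH differed by -0.91, BST2 by -0.73 and KPNA5 by 0.24. ADPRH, an ADP-ribosylarginine hydrolase, was at 7.01, 7.82 and 8.20 in the AS30 set and 22.7-fold lower in the SM30 set (adjusted p = 0.0055). BST2, also known as tetherin, an interferon-induced restriction factor, was at 6.99, 7.24 and 7.78 in the AS30 set and 14.8-fold lower in the SM30 set (adjusted p = 0.0010). Without array C of the AS30 set ADPRH differed by -4.24 and BST2 by -3.67. The genes of the interferon response did not move with BST2 as a group. Of 37 tested, BST2 among them, 2 were called higher and 3 lower, with a median of 0.0076. These shares were 5.41% and 8.11%, beside 15.1% and 11.2% of all genes. In the other direction KPNA5, an importin, was at 5.999, 6.38 and 6.43 in the SM30 set. Its bound was 3.65-fold higher than in the AS30 set over all 3 arrays of each. The fit dropped its spot on array C of the AS30 set and gave a smaller difference of 1.39 (adjusted p = 0.0040) from the remaining 2. In all, 94 called probes were well above background on no SM30-set array but on at least 1 AS30-set array. For 360 called probes it was the reverse. A further 80 were well above background on none of the 6 arrays.

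Where a gene lies in the genome went with the direction of its difference, a pattern noticed in the data. Chromosomes 16, 17, 19, 20 and 22, which are known as rich in genes and in G and C bases, had a median below 0, as did chromosome 11. Chromosomes 4, 5, 13 and 18, which are known as poorer in both, had the highest medians. On chromosome 19, 179 of 1763 probes were called higher and 311 lower (10.2% and 17.6%), with a median of -0.076. On chromosome 13, 137 of 499 were called higher and 25 lower (27.5% and 5.01%), with a median of 0.26. The medians of the 23 chromosomes ran from -0.11 (chromosome 22) to 0.26. Their order was nearly the same among NP-treated arrays, where they ran from -0.22 to 0.33 (Spearman's rho 0.97 over 23 chromosomes, which share the arrays, slides and probes).

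Arrays of 1 set also differed from each other by chromosome. In the AS30 set, array C minus the mean of A and B had medians of -0.18 on chromosome 4, -0.16 on chromosome 13 and 0.13 on chromosome 19. Against the others of that set the medians ran from -0.081 to 0.13 for array B and from -0.12 to 0.078 for array A. In the SM30 set they ran from 0.019 to 0.075 for array C, and were below 0 on the 23 chromosomes for A and for B. All these arrays enter the difference between the sets, so their order is not independent of it. Without array C of the AS30 set the medians between sets ran from -0.089 to 0.20. Called genes also differed in their span in the genome: the median was 14.3 kb for the 443 named genes lower by 2-fold or more and 34.2 kb for the 197 higher by 2-fold or more, beside 28.3 kb for those not called.

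**Figure D4:**
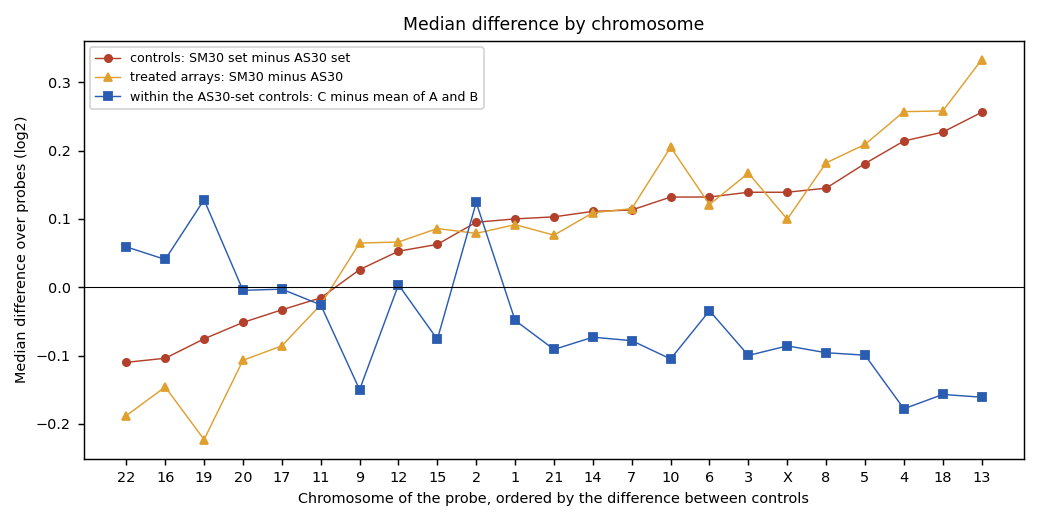
Median difference in log2 units over the tested probes of each chromosome (hg18), ordered by the difference between controls: SM30-set minus AS30-set controls, SM30-treated minus AS30-treated arrays, and array C minus the mean of A and B within the AS30-set controls. The first rises from -0.11 on chromosome 22 to 0.26 on chromosome 13, the second from -0.22 to 0.33, and the third from 0.13 on chromosome 19 to -0.18 on chromosome 4. The arrays of the third also enter the first, array C with a minus sign.

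The programmes with the largest shares of called genes upwards belong to mitochondria, ribosomes, splicing and hypoxia. The lists were described with 1 probe per gene, the brightest over the 18 arrays. Of 72 genes of oxidative phosphorylation, 24 were called higher and 5 lower (33.3% and 6.94%, beside 15.1% and 11.2% of all genes). The median difference was 0.27 beside 0.058 over all genes. The genes called higher include small subunits of complexes I, III, IV and V. NDUFC1, a complex I subunit, had 15.10, 15.19 and 15.11 in the SM30 set against 14.33, 14.41 and 13.94 (difference 0.91, adjusted p = 0.0018). COX8A, of complex IV, was higher by 1.06 (adjusted p = 0.0039) and NDUFB5 by 0.68 (0.0042). The 5 genes called lower were ATP5F1B, NDUFS7, NDUFV1, SDHA and UQCRC1, which form catalytic or core subunits, with differences of -0.35 to -0.45. A dimmer probe of NDUFS7 gave 0.084 (adjusted p = 0.64). As the median over its members, the list stood at 0.18, 0.12 and 0.080 on the SM30-set arrays, relative to the mean of both sets, and at -0.13, -0.080 and -0.10 on the AS30-set arrays. Of its 72 genes, 58 were also above 0 among NP-treated arrays. Without both C arrays 17 were called higher and 2 lower, and COX8A differed by 0.67. Leaving out array B of the SM30 set gave the fewest calls upwards of any single array, 16, with 3 called lower.

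Of 74 mitochondrial ribosomal proteins, 14 were called higher and 1 lower (18.9% and 1.35%, beside 15.1% and 11.2% of all genes), with a median of 0.20. MRPS23 had 12.66, 12.78 and 12.85 against 11.93, 12.23 and 12.26 (difference 0.62, adjusted p = 0.0013), and MRPL3 was higher by 0.61 and by 0.73 with a further probe. The share called higher was near that of all genes, and the share called lower was below it. Of 75 cytosolic ribosomal proteins, 16 were called higher and 1, RPLP1, lower (21.3% and 1.33%), with a median of 0.25. The direction of this list depends on the scaling: with the 75th percentile of each array 1 was called higher and 17 lower, with a median of -0.23, and with cyclic loess 1 and 22, with a median of -0.19. RPL37A, higher by 0.64, fell to 0.087 in the setting where it was lowest.

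Genes of ribosome assembly and of splicing changed in both directions. Of 45 ribosome biogenesis genes, 12 were called higher and 5 lower (26.7% and 11.1%, beside 15.1% and 11.2% of all genes). Their median was 0.20. TAF1D, a subunit of an RNA polymerase I factor, had 11.32, 11.26 and 11.47 against 10.53, 10.71 and 10.40. POLR1A, the largest subunit of that polymerase, was lower by 1.54, with 5.78, 5.95 and 3.49 against 6.80, 6.49 and 6.55, and its call was lost without array A of the AS30 set (-1.45, adjusted p = 0.058). Its difference was -0.75 without array C of the SM30 set. The genes called higher numbered 6 without array A of the AS30 set, 7 without array A of the SM30 set and 4 without array B or C of the SM30 set. Without both C arrays 1 of these genes was called higher and 3 lower. Of 47 spliceosome and SR protein genes, 12 were called higher and 3 lower (25.5% and 6.38%), with a median of 0.16. TRA2A, a splicing regulator, had 9.36, 9.72 and 9.82 against 8.68, 8.76 and 8.53 (difference 0.97, adjusted p = 0.00043), and its other probe gave 1.54. SRSF3, an SR protein, was higher by 0.71. PRPF8, the core protein of the spliceosome, was lower by 0.74 and by 0.78 with its other probe.

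Of 27 genes of the hypoxia response, 9 were called higher and 1 lower (33.3% and 3.70%, beside 15.1% and 11.2% of all genes). Their median was 0.29. HIF1A, the oxygen-regulated subunit of the hypoxia-inducible factor, had 12.58, 12.85 and 12.91 in the SM30 set against 11.88, 12.12 and 11.72 (difference 0.87, adjusted p = 0.0012). ARNT, its partner subunit, was higher by 1.19, and a further probe by 0.52. Each SM30-set array was above each AS30-set array for both subunits. The targets ADM, ANKRD37, CA9, EGLN3, P4HA1 and VEGFA were called higher by 0.55 to 0.88. The call downwards was a probe annotated to VHL that the files place on chromosome 9, away from the gene. The probe at VHL on chromosome 3 differed by 0.76 (adjusted p = 0.082). The list's level was 0.11, 0.15 and 0.24 on the SM30-set arrays and -0.17, -0.052 and -0.17 on the AS30-set arrays. With both C arrays left out the genes called higher were HIF1A and ARNT, 1 was called lower, and the median was 0.27. ARNT then differed by 0.79. Leaving out 1 array at a time, in the order A, B and C of the AS30 set and A, B and C of the SM30 set, gave 4, 6, 4, 6, 3 and 3 genes called higher, with medians of 0.28 to 0.39. The call of EGLN3 was lost without any single array but A of the AS30 set, and that of P4HA1 without array B or C of the SM30 set or A or C of the AS30 set. Both calls were also lost with 75th percentile scaling (0.70 and 0.55) and cyclic loess (0.59 and 0.50).

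Genes of glycolysis, many of them targets of the same factor, had few calls upwards. Of 22 genes, 2 were called higher and 5 lower (9.09% and 22.7%, beside 15.1% and 11.2% of all genes), with a median of -0.18. ALDOA (aldolase A) had 14.68, 14.62 and 14.25 against 15.46, 15.37 and 16.34, a difference of -1.21, while its other probe gave -0.18. PFKL, the liver-type phosphofructokinase, was lower by 1.80 and by 0.88 with its other probe. With both C arrays left out ALDOA differed by -0.77 and PFKL by -1.15, and 2 of these genes were called lower, as they were without array C of the AS30 set alone. Leaving out any other array left 3 or 4 called lower.

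Lysosomal genes were lower on the SM30-set arrays. Of 42 genes of lysosome and autophagy, 10 were called lower and 2 higher (23.8% and 4.76%, beside 11.2% and 15.1% of all genes), with a median of -0.31. PSAP (prosaposin, the precursor of sphingolipid activators) had 12.47, 12.60 and 12.65 in the SM30 set against 14.14, 13.63 and 13.80 (difference -1.28, standard error 0.20, adjusted p = 0.00082), and a further probe gave -1.32. CTSD, a lysosomal protease, had 9.33, 9.30 and 9.44 against 11.02, 10.31 and 9.89. Its call was lost without array A of the AS30 set (-0.75, adjusted p = 0.068). The cargo receptor SQSTM1 was lower by 0.89, and in these genes the sets did not overlap. The 2 genes called higher, ATG12 and ATG5, belong to the conjugation step of autophagosome formation (0.66 and 0.56), and a further probe of each gave 0.73 and 0.46. The list's level was -0.19, -0.12 and -0.094 on the SM30-set arrays and 0.14, 0.055 and 0.096 on the AS30-set arrays. Without both C arrays 5 were called lower and 2 higher, and without array A of the AS30 set also 5 were called lower. Among NP-treated arrays 19 of the 42 were above 0.

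Of 31 targets of p53, 7 were called lower and 4 higher (22.6% and 12.9%, beside 11.2% and 15.1% of all genes). Their median was 0.017. CDKN1A, the p21 inhibitor of cyclin-dependent kinases, had 11.71, 11.59 and 11.53 against 12.64, 12.35 and 12.53 (difference -0.90, standard error 0.11, adjusted p = 0.00018), and its other probe gave -1.13. SFN (14-3-3 sigma) was lower by 0.85 and BBC3 (the death protein PUMA) by 0.81. GADD45B, a stress sensor, was higher by 0.59, while its other probe gave 0.13 (adjusted p = 0.69). The targets differed in both directions. Of 43 genes of the NF-kB pathway and inflammation, 0 were called higher and 7 lower (16.3%) by limma, beside 15.1% and 11.2% of all genes. The median was -0.086, and at an unadjusted p under 0.05 the counts were 0 and 11. Without both C arrays 8 were called lower, and leaving out single arrays gave 10 without array C of the AS30 set and 4 without array B or C of the SM30 set. The median was 0.024, above 0, without array B of the AS30 set. NFKB2, the p100 subunit, had 8.05, 8.16 and 8.17 against 9.55, 9.31 and 9.27 (difference -1.25, adjusted p = 0.00020). TRAF1, an adaptor of TNF receptors, had 8.46, 8.67 and 8.78 against 9.77, 9.91 and 9.61 (difference -1.12, adjusted p = 0.00028), and its other probe gave -0.41. NFKB1 was lower by 0.78, RELA by 0.45 and NFKBIB by 0.43. The level of this list varied inside the AS30 set, with 0.34, 0.30 and -0.34 on arrays A, B and C. Its direction was not kept among NP-treated arrays, where the median was 0.46 and 35 of the 43 genes were above 0, against 19 among controls. Particle, slide and set cannot be told apart there.

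Of 31 genes of TGF-beta, BMP and ID signalling, 6 were called higher and 3 lower (19.4% and 9.68%, beside 15.1% and 11.2% of all genes). The ligand TGFB2 was higher by 1.02 and by 0.67 with a further probe. Its call was lost when spots flagged as outliers were kept, when all spots were kept and with the authors' deposited values. The ligand TGFB1 was lower by 0.83, with 9.37, 9.34 and 9.33 against 10.40, 10.36 and 9.77. Of 40 mesenchymal, matrix and integrin genes, 4 were called lower and 0 higher by limma, and 7 and 3 had an unadjusted p under 0.05. ITGA5, the fibronectin receptor subunit, had 7.53, 7.44 and 7.71 against 8.65, 8.47 and 8.47, and ITGA3 was lower by 0.84 (-0.82 without both C arrays, adjusted p = 0.057). Of 19 genes of antigen presentation, 3 were called lower and 1 higher. Of 34 targets of NRF2, 5 were called lower and 2 higher, among them GCLC of glutathione synthesis at 0.67.

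KRAB zinc finger genes encode repressors, many in clusters on chromosome 19. Of 77, 12 were called higher and 2 lower (15.6% and 2.60%, beside 15.1% and 11.2% of all genes), with a median of 0.24. The 39 of them on chromosome 19 had a median of 0.29, where the other 1724 probes of that chromosome had -0.088, and the 38 elsewhere had 0.22. Without array C of the AS30 set 7 of the 77 were called higher and their median was 0.12, and without array A, B or C of the SM30 set 8, 7 and 7 were. With 75th percentile scaling 6 of the 77 were called higher and 5 lower.

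Of 56 genes of G1/S and DNA replication, 9 were called higher and 5 lower (16.1% and 8.93%, beside 15.1% and 11.2% of all genes). Their median was 0.085. Of 52 genes of mitosis and G2/M, 2 were called higher and 5 lower (3.85% and 9.62%), with a median of 0.18. Of 43 replication-dependent histones, 3 were called higher and 0 lower by limma, and 7 and 5 had an unadjusted p under 0.05. Outside the cell cycle, of 21 genes of cholesterol synthesis 1 was called, and of 34 proteasome subunits 5 were called higher and 2 lower. Without both C arrays the medians of the lists of the cell cycle were -0.026 and 0.087.

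**Figure D5:**
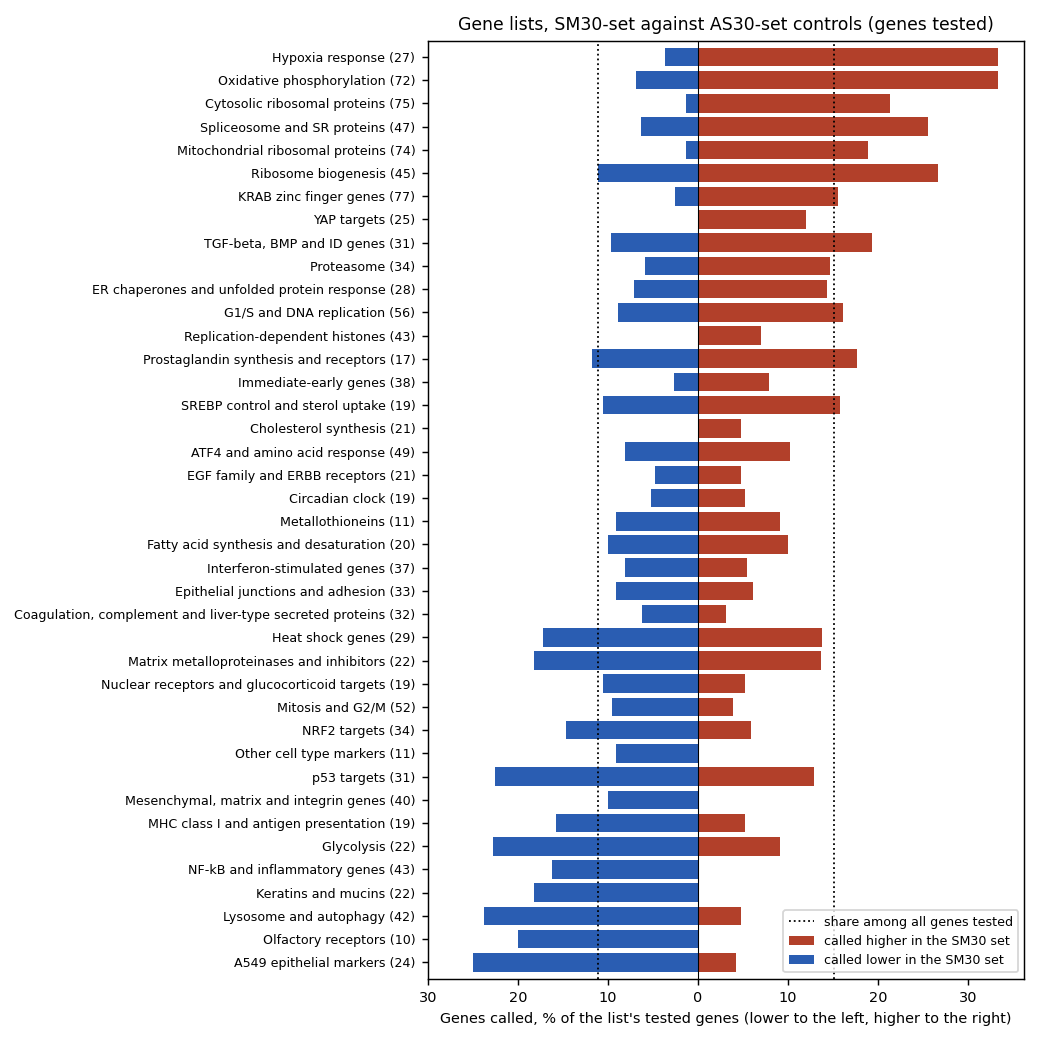
Share of the tested genes of each of 40 lists that were called higher (right) or lower (left) in the SM30-set controls, in percent, with the number tested in brackets and the shares among all genes tested dotted (15.1% and 11.2%). Oxidative phosphorylation and the hypoxia response reach 33.3% upwards, and lysosome and autophagy 23.8% downwards.

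Of 24 epithelial and A549 markers, 1 was called higher and 6 lower (4.17% and 25%, beside 15.1% and 11.2% of all genes), with a median of -0.16. With 75th percentile scaling 8 were called lower and with cyclic loess 9, with medians of -0.38 and -0.35. Among those not called, the markers KRT7, KRT8, AKR1B10, AKR1C1, AKR1C3 and ALDH1A1 differed by -0.070 to 0.15 log2 units, with adjusted p of 0.48 or more, AKR1C3 without a spot on array C of the SM30 set. Their direction depends on the scaling: with cyclic loess AKR1B10 (-0.43), AKR1C1 (-0.35) and AKR1C3 (-0.45) were called lower, as were AKR1C1 and AKR1C3 with the 75th percentile. A dimmer probe of AKR1C1 was called higher by 0.53 (adjusted p = 0.013). AKR1B10, a reductase typical of the line, had 17.20, 17.29 and 17.53 against 17.27, 17.28 and 17.02. KRT18 was lower by 0.37 (adjusted p = 0.025) and ACTB (beta-actin) by 0.38 (0.016), while GAPDH differed by -0.16 (0.34). With cyclic loess these differences were -0.85, -0.86 and -0.55, and GAPDH was called. Further probes of KRT18 gave 0.070 (adjusted p = 0.80), -0.082 (0.76) and, for a dim one, 0.44 (0.56). Further probes of ACTB gave -0.65 (0.016), -0.35 (0.0067) and -0.22 (0.11). Leaving out array A of the SM30 set ended the call of ACTB (-0.28, 0.074), and that of KRT18 was lost without array B or C of the SM30 set or array A of the AS30 set (-0.29, 0.094, without the last). The surfactant genes of alveolar type 2 cells were dim: SFTPA1 lay at 5.39 to 5.52 against 6.41 to 6.69 and was called lower. Of 20 markers of other cell types 11 could be tested, of which 0 were called higher and 1 lower by limma, and 1 and 2 had an unadjusted p under 0.05.

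Of the genes on which the study centred, MMP1, MMP10, MMP9, TNF, IL1B and ATM were not called between its control sets. MMP1, an interstitial collagenase, had 4.32, 4.75 and 4.66 in the SM30 set and 5.99, 6.58 and 4.32 in the AS30 set (difference -1.05, standard error 0.85, adjusted p = 0.39). MMP10 differed by -0.68 (0.28), MMP9 by -0.12 (0.61), TNF by -0.44 (0.25), IL1B by 0.51 (0.70) and ATM by -1.97 (0.27). MMP1 differed by -1.71 without array C of the AS30 set and was called with array weights (-1.48, adjusted p = 0.042). TNF was called with the replicate letter as a block over the 18 arrays (0.046). IL1B turned to -0.30 without array C of the AS30 set. ATM differed by -0.40 without array B and -3.55 without array A of the AS30 set, and its other probe gave 0.68 (0.18). The fit dropped the spots of MMP10, TNF and ATM on array C of the AS30 set. Signals of MMP1, TNF and ATM were dim, and with normexp they differed by -0.16, -0.026 and -0.29. The 3 AS30-set values of MMP1 spread over more than the difference, which was not detectable beyond the error here.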

How the data were processed

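Single-colour Agilent arrays were read for 18 samples, of which the 6 untreated controls at 3 h are described. The authors deposited scanner output of Agilent Feature Extraction (10.5.1.1 in the file headers), whose processed signal is a background-corrected intensity on a linear scale. They also deposited a table of quantile-normalized intensities, whose log2 values were used as an alternative. Here spots without a positive and significant signal were dropped, after the study's methods, and so were spots flagged as outliers, a step its methods do not state. As in the study, log2 intensities were quantile normalized over the 18 arrays, replicate spots were averaged and probes with a share of missing values over 0.33 were removed. Per the labels the replicates are biological. Precision is limited by the 3 arrays per set.

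limma fitted the 18 arrays as 6 groups (12 residual degrees of freedom), with Benjamini-Hochberg adjustment over all probes tested. Software was R 4.3.3, limma 3.58.1, data.table (version 1.17.8), statmod 1.5.0, jsonlite 2.0.0 and matplotlib 3.10.9. The code was tested on simulated data. Alternatives changed the scaling, background correction, filters, samples fitted, blocks and weights, and left out arrays. Replicate letters were checked by correlating deviations from the set means, which were 0.040, 0.071 and 0.099 for A, B and C, and were not taken to pair the arrays.

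Named genes were the 15 largest called differences in each direction among probes well above background on all 6 arrays without overlap, up to 4 and 2 called members of each list along and against its main direction, up to 5 genes in each direction with a bound, GAPDH, ACTB and A549 markers, and genes the study names. Further list members were named after their values were seen. 1 further gene of the rule lies on chromosome Y and is not described, and some items are not reported here. The members and lists were chosen with earlier results of these data known. Columns of per-sample values left unused numbered 0.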

Additional observations from a re-analysis of the deposited data

Results flagged for a closer look

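TRAF1, an adaptor of TNF receptors, differed between the sets by -1.12 log2 units among controls and by 0.23 among NP-treated arrays. The difference of these differences, controls minus treated, was -1.35 (adjusted p = 0.033, interaction term in limma), so the sets differed in untreated cells and not in the same way in treated ones. The interaction passed for 14 probes in all, 8 of them among the probes called between the controls. Particle, slide and set cannot be told apart among the treated arrays.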

How the results depend on the processing

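In none of the 22 planned settings and 1 setting chosen after seeing the data (both C arrays left out) was a called probe of the comparison called in the opposite direction. Some settings could not show such a call. The fold of at least 2 keeps a part of the main calls, and the replicate block over the 6 arrays called 0 probes. The mean over all probes of a gene was used for list medians only and made no calls. The count of 7668 called probes (4479 higher, 3189 lower) came to 3081 (1861, 1220) with quantile normalization of the 6 control arrays alone, 3197 (1903, 1294) with only those arrays in the fit, 3989 (2214, 1775) without both C arrays and 1962 (985, 977) at a fold of at least 2. Leaving out 1 array at a time gave 5249 to 7676 probes, 3028 to 4479 higher and 2221 to 3197 lower. The replicate block over 18 arrays gave 7899 called probes. The replicate block over the 6 arrays gave 0 in limma (0 higher, 0 lower), with 8802 probes at an unadjusted p under 0.05, and the letters did not pair the arrays. The split of calls depended on the scaling: 58.4% of calls were higher, against 49.5% with the 75th percentile (3749 higher, 3831 lower) and 47.2% with cyclic loess (3752 higher, 4195 lower). With slide as a random block 9680 probes were called. Each set lies on 1 slide, so this setting cannot adjust the comparison for slide. The estimated correlation within slides was -0.083. Over all settings, the differences of the called genes named in the text kept direction and side of the threshold in 1198 instances and lost a call in 141, with no change of direction. Those of named genes without a call changed sign in 30 instances, and 3 times a gene became called in the same direction (GAPDH, MMP1 and TNF). The calls of CACNA1E, NRN1, PFKL, NFKB1, CTSD, POLR1A, COX8A, NDUFB5, NDUFS7, UQCRC1, ACTB, KRT18 and FOSL1 were lost both with quantile normalization of the 6 arrays and with those arrays alone in the fit. POLR1A also lost its call with array weights, and KRT18 and P4HA1 with normexp. The medians of the gene lists moved by less than the spread between replicates in 775 instances and by more in the others. The causes were not tested. Signal over background limits the dim genes. Bounds are given for some of them, while MMP1, TNF, ATM, POLR1A and SFTPA1 are given as differences. With normexp, POLR1A differed by -0.27 and SFTPA1 by -0.18.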
